A study of Mus musculus with 12 samples.

Results

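The sarcomere, the contractile unit of heart muscle, is bounded by Z-discs and has the M-band at its middle, and 10 genes that build or span these structures were followed through the embryonic heart and the heart organoids (HOs). The members were taken by name from the 26190 genes of the expression table: Ttn, Tcap, Actn2, Ldb3, Csrp3, Nebl, Xirp1, Myom1, Myom2 and Mybpc3. Every one of the 10 was in the table and passed the filter on low counts in each comparison, although Myom2 had between 0 and 241 fragments in a library. Mybpc3 codes for a thick filament protein of the A-band and stands with the others as a partner of titin and myosin.

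RNA-seq was performed on 4 groups of 3 libraries each. The atria and the ventricles were dissected from hearts of C57BL/6 mouse embryos at day E11.5 (E11.5H). The atrium-like and ventricle-like parts were cut by hand from HOs after 13 days of culture, and these were grown from mouse embryonic stem cells, labelled C57BL/6, with FGF4 on a laminin and entactin (LN/ET) gel, with BMP4, LIF and the Wnt activator BIO added in the later days. The labels name no transgene or knockout for any group, and how many hearts or HOs were pooled in a library was not given. The sources describe the 3 HO replicates as biological, and where replicates of the embryo shared a litter is not stated, so p-values measure the spread between these libraries.

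In heart muscle the Z-disc anchors the thin actin filaments of neighbouring sarcomeres, and alpha-actinin is its main cross-linker. Titin runs from the Z-disc to the M-band and acts as a spring and a ruler for the thick filament, while myomesins tie thick filaments and titin together at the M-band. Nebulette, LIM proteins and telethonin join these filaments to the Z-disc, and mutations in several of these genes are known causes of cardiomyopathy.

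Libraries held 23971258 to 30540993 fragments assigned to genes. All 16 reference cardiomyocyte genes, such as Tnnt2 and Nkx2-5, reached a CPM (counts scaled to the library total) of 1 in each of the 12 libraries, so cardiomyocyte RNA was present in every group. Their mean log2 CPM lay between 9.50 and 10.17 over the E11.5H libraries, between 4.90 and 6.60 over the atrium-like ones and between 6.91 and 8.37 over the ventricle-like ones. Markers of gut epithelium (11 genes) had a mean log2 CPM between -0.27 and 0.33 over E11.5H, between 6.95 and 8.36 over the atrium-like and between 2.67 and 7.80 over the ventricle-like libraries. Erythroid markers (10 genes) lay between 5.92 and 9.70 over E11.5H and between -2.92 and -1.47 over HOs. In such bulk samples fewer cardiomyocytes and less RNA per cardiomyocyte cannot be told apart. Markers of skeletal muscle (15 genes) stood at a mean log2 CPM of 3.15 in replicate 2 of the atrium-like parts and 2.90 in replicate 2 of the ventricle-like parts, against -2.96 to -1.67 in the other 4 HO libraries, and 12 and 14 of the 15 genes reached 1 CPM there. In E11.5H the same list reached 2.08 in replicate 3 of the atria and -1.33 to 0.15 in the other 5 libraries. The defining gene Myod1 had 4, 51 and 206 fragments in the atria, 643 and 1169 in these HO libraries and 0 in the ventricles and the other 4 HO libraries, and the counts of members below are also given without the 2 HO libraries that hold it. The atria libraries with Myod1 were left out only singly, as every library was, and not together.

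The genes lie on 8 chromosomes of GRCm38. Ttn (chr2:76703984-76982547), Nebl (chr2:17342673-17731134) and Mybpc3 (chr2:91118144-91136516) share chromosome 2, and the others are Csrp3 (chr7:48830398-48848051), Myom2 (chr8:15057653-15133419), Xirp1 (chr9:120013755-120023598), Tcap (chr11:98383811-98384953), Actn2 (chr13:12269427-12340732), Ldb3 (chr14:34526699-34588681) and Myom1 (chr17:71019557-71126856). Exons of Ttn overlap those of the antisense gene Gm13938 over 453 bases and exons of Myom1 those of Gm26561 over 150 bases, and the use of strand in counting was not given in the sources used here.

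The promoters of 7 of the 10 genes were found in the RefSeq table (build GRCm38.p6), with none for Myom2, Xirp1 and Tcap. The 250 bases before the start were searched on both strands for the MEF2 box and the CArG box (the binding sequences of MEF2 factors and of serum response factor), for M-CAT (CATTCC), for AGATAA as a GATA site and for TATAAA. A MEF2 box lay 166 to 157 bases before the start of Ttn and 90 to 81 bases before that of Mybpc3, and 0.509% of 32817 promoters hold one. A CArG box lay 35 to 26 bases before the start of Ldb3 and 99 to 90 bases before that of Myom1, against 1.47% of all promoters, and Myom1 also held a GATA site (9.99% of promoters). None of the 7 held M-CAT (12.6% of promoters) or TATAAA (12.4%). These 4 promoters are shown because they carry a box known from muscle genes, which stands in capitals, as does the GATA site of Myom1. They span chr2:76982548-76982797 (Ttn, minus strand), chr2:91117894-91118143 (Mybpc3, plus strand), chr14:34588682-34588931 (Ldb3, minus strand) and chr17:71019307-71019556 (Myom1, plus strand), written 5′ to 3′.
Ttn: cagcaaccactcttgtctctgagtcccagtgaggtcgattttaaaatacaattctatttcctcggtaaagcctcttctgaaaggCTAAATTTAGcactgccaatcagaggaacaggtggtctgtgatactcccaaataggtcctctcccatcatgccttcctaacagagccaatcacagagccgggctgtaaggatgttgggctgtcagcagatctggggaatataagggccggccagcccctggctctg
Mybpc3: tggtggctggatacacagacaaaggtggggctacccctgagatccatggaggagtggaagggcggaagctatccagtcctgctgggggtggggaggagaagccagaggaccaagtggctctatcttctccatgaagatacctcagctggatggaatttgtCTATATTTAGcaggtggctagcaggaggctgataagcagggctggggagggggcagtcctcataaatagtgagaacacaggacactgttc
Ldb3: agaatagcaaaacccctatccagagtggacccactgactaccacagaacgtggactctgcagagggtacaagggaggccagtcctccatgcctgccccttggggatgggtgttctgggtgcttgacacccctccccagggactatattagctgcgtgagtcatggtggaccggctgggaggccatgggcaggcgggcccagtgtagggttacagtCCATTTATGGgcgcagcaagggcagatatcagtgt
Myom1: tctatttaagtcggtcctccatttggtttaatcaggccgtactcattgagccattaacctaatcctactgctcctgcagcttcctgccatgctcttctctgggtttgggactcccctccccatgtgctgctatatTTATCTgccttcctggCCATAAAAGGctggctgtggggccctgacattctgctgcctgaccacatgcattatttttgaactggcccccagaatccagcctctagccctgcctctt
A match describes the letters only.

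Levels were compared between genes as FPKM, fragments scaled by transcript length and library total. In the atria of E11.5H the medians ran from Csrp3 (876 FPKM) over Actn2 (359.9), Mybpc3 (268), Tcap (66.9), Ldb3 (48.8), Myom1 (44.2), Xirp1 (28.1), Ttn (26.7) and Nebl (20.4) to Myom2 (0.274). Ldb3 and Myom1 overlapped in their 3 libraries, as did Xirp1 with Ttn and Ttn with Nebl, while every other neighbour in this order was separate. The order in the ventricles differed only in that Myom1 stood above Ldb3, again with overlap. By median Csrp3, Actn2 and Mybpc3 kept the 3 first places in all 4 groups. In both HO parts, however, Csrp3 overlapped with Actn2, Actn2 with Mybpc3 and Mybpc3 with Ldb3, while Csrp3 and Mybpc3 were separate. Ldb3 stood above Mybpc3 in replicates 1 and 3 of the atrium-like parts (8.17 and 16.4 against 2.76 and 13.9 FPKM). Titin is a long transcript of 104320 bases in the table, and it had 3996 to 120614 fragments in a library.

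**Figure D1:**
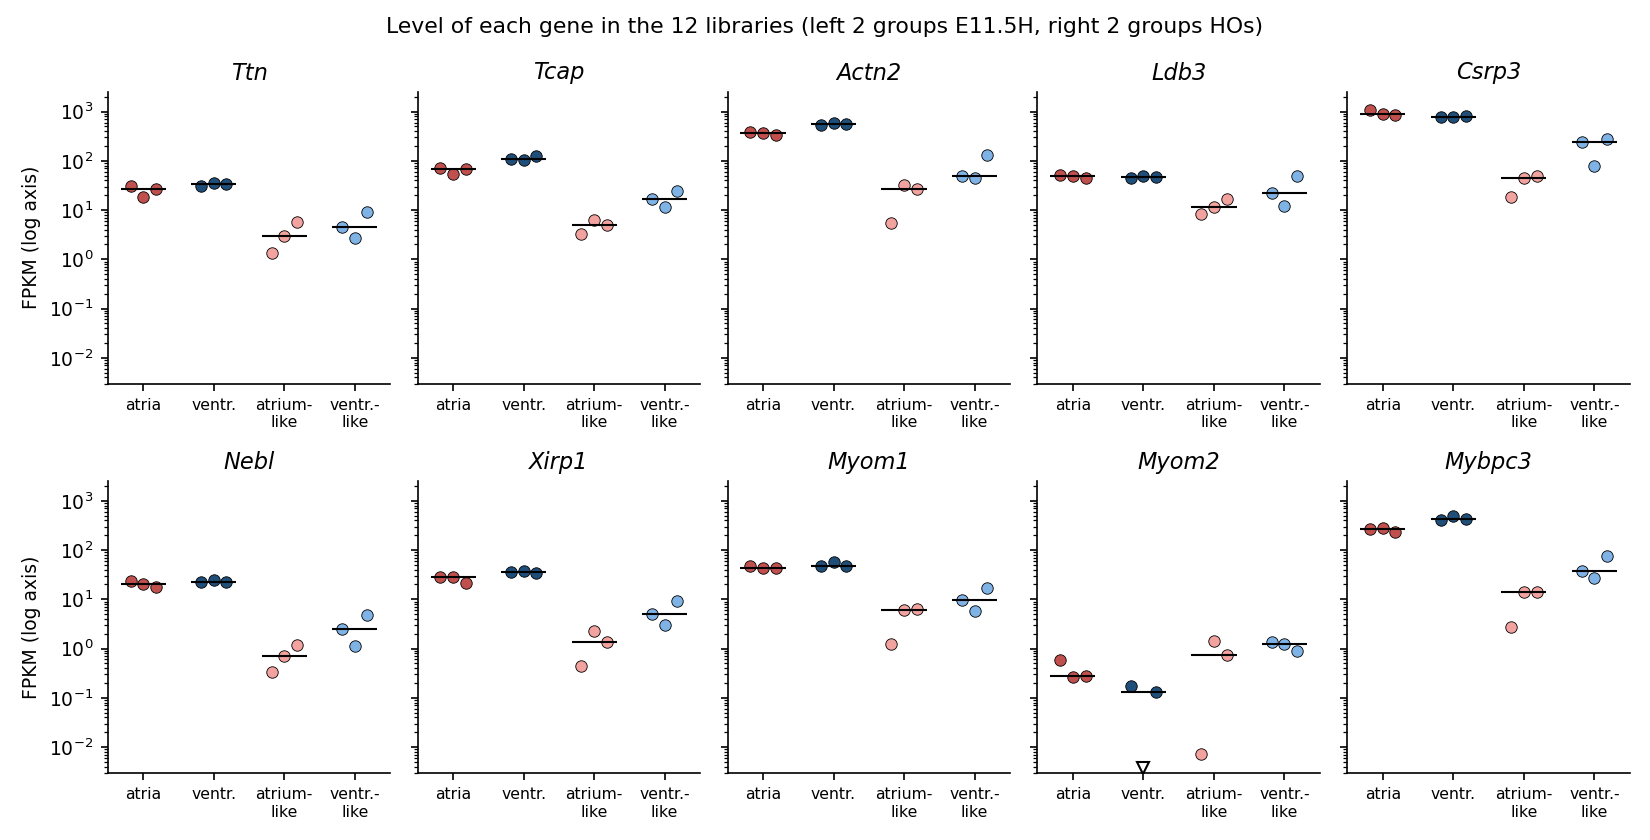
Level of each of the 10 genes in FPKM (log axis) in the 12 libraries, as 1 point per library with the group median as a bar. The open triangle in the Myom2 panel is a library listed at 0. In 8 of the 10 panels every HO library lies below every E11.5H library (13.6% of all 16494 genes do), and the Ldb3 and Myom2 panels are the exceptions.

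Ttn, titin itself, reached 30.3, 18.5 and 26.7 FPKM in the 3 atria libraries and 31.2, 35.8 and 34.4 FPKM in the ventricles. It stood at 1.34, 3.01 and 5.65 FPKM in the atrium-like parts and at 4.43, 2.65 and 9.08 FPKM in the ventricle-like parts. All 6 HO libraries lay below all 6 E11.5H libraries, and the 2 HO parts overlapped. Tcap, telethonin, which caps the Z-disc end of titin, had 70.6, 54.5 and 66.9 FPKM in atria and 111, 105 and 124 FPKM in ventricles. In the HOs it had 3.32, 6.19 and 4.93 FPKM in atrium-like and 16.98, 11.8 and 24.01 FPKM in ventricle-like parts. The 4 groups of Tcap did not overlap, with ventricles highest and atrium-like parts lowest.

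Actn2, the muscle alpha-actinin that cross-links actin at the Z-disc, was at 391, 359.9 and 333 FPKM in atria and 541, 583 and 571 FPKM in ventricles. Its HO values were 5.35, 33.0 and 26.9 FPKM in atrium-like and 49.0, 45.2 and 129.8 FPKM in ventricle-like parts. As for Tcap, no 2 groups of Actn2 overlapped. Ldb3, a PDZ and LIM protein (Cypher or ZASP) that binds alpha-actinin, had 52.5, 48.8 and 45.7 FPKM in atria, 44.7, 50.2 and 46.4 FPKM in ventricles, 8.17, 11.4 and 16.4 FPKM in atrium-like and 22.6, 12.1 and 48.3 FPKM in ventricle-like parts. Replicate 3 of the ventricle-like parts thus reached the embryonic range of Ldb3, which no HO library did for the other members apart from Myom2. Csrp3, the muscle LIM protein of the Z-disc, had 1055, 876 and 861 FPKM in atria and 762, 785 and 802 FPKM in ventricles, so that the atria were higher without overlap. It had 18.6, 43.8 and 48.4 FPKM in atrium-like and 242, 80.3 and 273 FPKM in ventricle-like parts, again without overlap and in the opposite order.

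Nebl, nebulette, the cardiac nebulin relative at the Z-disc end of the thin filament, was at 23.2, 20.4 and 18.2 FPKM in atria and 22.8, 24.9 and 22.0 FPKM in ventricles. The HO values were 0.337, 0.708 and 1.18 FPKM in atrium-like and 2.51, 1.15 and 4.77 FPKM in ventricle-like parts, and in both tissues the chambers of Nebl overlapped. Xirp1, a Xin repeat protein that binds actin at cell junctions of heart muscle, had 28.4, 28.1 and 21.8 FPKM in atria, 36.7, 38.3 and 34.1 FPKM in ventricles, 0.443, 2.26 and 1.33 FPKM in atrium-like and 5.05, 2.98 and 9.22 FPKM in ventricle-like parts. Its 4 groups did not overlap.

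Of the M-band genes, Myom1 (myomesin 1, the cross-linker of myosin filaments) had 46.8, 43.5 and 44.2 FPKM in atria and 48.2, 58.0 and 48.2 FPKM in ventricles, against 1.21, 6.02 and 6.28 FPKM in atrium-like and 9.48, 5.67 and 16.6 FPKM in ventricle-like parts. Myom2, which codes for M-protein, another myomesin, had at most 102 fragments in an E11.5H library, with 0.582, 0.270 and 0.274 FPKM in atria and 0.176, 0 and 0.130 FPKM in ventricles. It stood at 0.00705, 1.44 and 0.735 FPKM in atrium-like and 1.38, 1.25 and 0.909 FPKM in ventricle-like parts, so 5 of the 6 HO libraries lay above all 6 embryo libraries. The ratio of Myom2 to Myom1 in FPKM was at most 0.0124 in E11.5H, between 0.0548 and 0.221 in ventricle-like parts and 0.00581, 0.238 and 0.117 in atrium-like parts, where replicate 1 thus lay in the embryonic range. Mybpc3, cardiac myosin-binding protein C of the A-band, had 268, 282 and 237 FPKM in atria and 417, 481 and 423 FPKM in ventricles, and 2.76, 13.8 and 13.9 FPKM in atrium-like and 38.2, 26.6 and 76.9 FPKM in ventricle-like parts, with no overlap between any groups.

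The first comparison asked how the chambers of the embryonic heart differ in these genes. Tcap, Mybpc3, Actn2 and Xirp1 were lower in atria than in ventricles by 0.89 ± 0.12, 0.82 ± 0.08, 0.71 ± 0.08 and 0.55 ± 0.10 (log2 fold change ± SE), which is 1.86, 1.76, 1.64 and 1.46 times. Their adjusted p in edgeR's quasi-likelihood test was 0.000898, 0.000105, 0.000191 and 0.0049, but none of the 10 genes passed the fold limit of 1 on the log2 scale as well, against 4.9% of all genes tested in either direction. At the adjusted p alone 4 of 10 were lower in atria and 0 higher, where 7.16% of all genes were lower. The rest ranged from -0.49 ± 0.16 for Ttn (adjusted p 0.065, edgeR) over Myom1 (-0.27, 0.059), Nebl (-0.24, 0.12) and Ldb3 (-0.01, 0.94) to Csrp3 (0.18, 0.23) and Myom2 (1.81 ± 0.99, 0.28). In FPKM 6 of the 10 genes were lower in every atria library than in every ventricles library, as were 11.8% of all genes, and Csrp3 and Myom2 were higher without overlap, as were 21.3% of all genes.

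**Figure D2:**
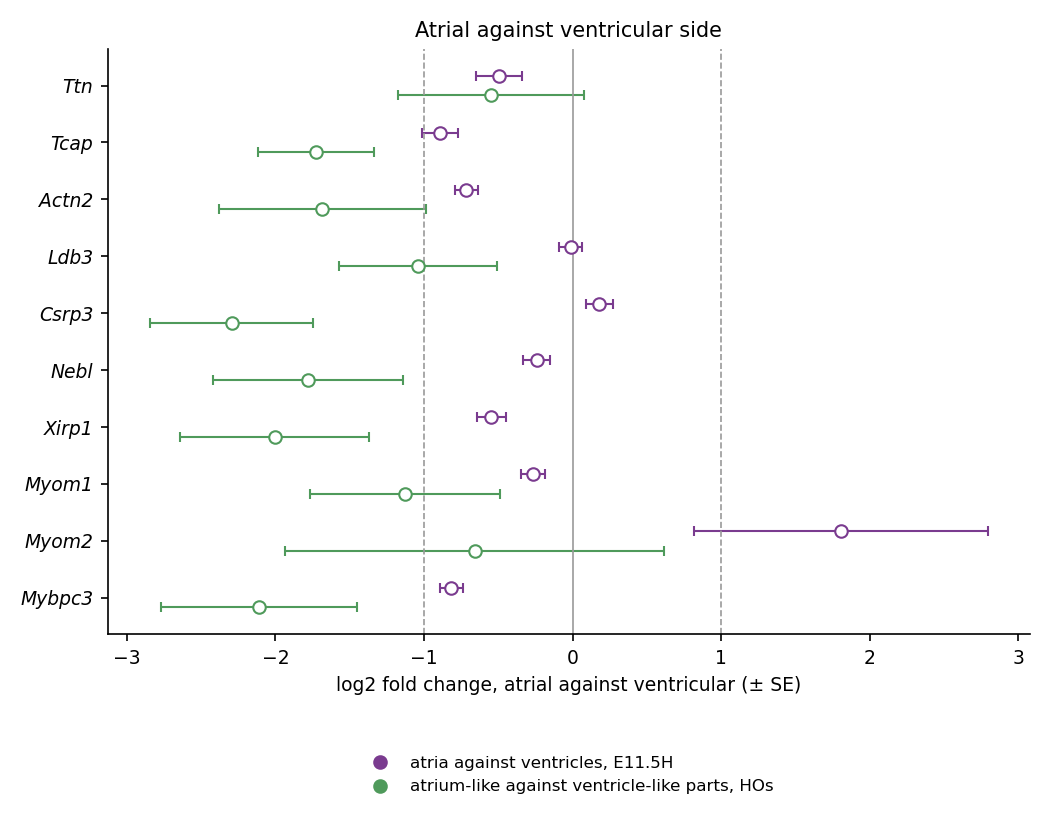
Log2 fold change (± SE, edgeR) of the atrial against the ventricular side for each gene, in E11.5H and in the HOs. Open points did not pass both thresholds, which is every point here, and dashed lines mark a log2 fold change of 1 in either direction. The embryo values lie between -0.89 and 1.81 with short error bars except for Myom2, and the 10 HO values all lie below 0 with longer ones, a direction that 5 of them lose when scaled to the reference cardiomyocyte genes.

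In the HOs the same comparison gave negative values for all 10 genes, from -0.55 ± 0.62 for Ttn to -2.30 ± 0.55 for Csrp3, although Ttn, Myom1, Myom2, Ldb3 and Tcap turned positive when the fit was scaled to the reference cardiomyocyte genes, which moved the median of all genes by 1.70 (1.66 with the 6 cardiac-restricted genes described below). The other values were -2.11 ± 0.66 for Mybpc3, -2.01 ± 0.63 for Xirp1, -1.78 ± 0.64 for Nebl, -1.73 ± 0.39 for Tcap, -1.68 ± 0.69 for Actn2, -1.13 ± 0.64 for Myom1, -1.04 ± 0.53 for Ldb3 and -0.66 ± 1.28 for Myom2. None passed edgeR's quasi-likelihood test, with an adjusted p of 0.75 or more, and the test called 0% of 15703 genes. At an unadjusted p under 0.05, edgeR gave 5 of the 10 (Tcap, Csrp3, Mybpc3, Xirp1 and Nebl) and 2.38% of all genes as lower in atrium-like parts, and DESeq2 called Csrp3 and Tcap (adjusted p 0.026 and 0.022), as it did 0.153% of all genes as lower. In FPKM 5 of 10 (Actn2, Csrp3, Mybpc3, Tcap and Xirp1) were lower in every atrium-like library, against 9.25% of all genes. The reference cardiomyocyte genes moved the same way, with a median of -1.68 over the 16 beside -1.70 over the 10 members and -0.03 over all genes.

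The chamber difference was then compared between tissues in a fit of all 12 libraries. No member passed (background 0.152% of genes), and at an unadjusted p under 0.05 edgeR gave 3 of 10 (Csrp3, Nebl and Tcap) with a negative value, as it did 5.99% of genes. Csrp3 had the smallest p, with a difference of differences of -2.48 ± 0.60 and an adjusted p of 0.19 in edgeR: atria stood above ventricles in E11.5H and atrium-like below ventricle-like parts in HOs. DESeq2 called this gene (-2.44, adjusted p 0.0032), with 1.62% of all genes called negative, and edgeR did so without replicate 2 of the ventricle-like parts (-2.87, adjusted p 0.026, 0.213% of genes) and without both libraries with Myod1 (-2.92, adjusted p 0.017, 1.11% of genes). The value nearest to 0 was that of Ttn (-0.06 ± 0.72), which turned positive when 1 library was left out in 5 of 12 cases and under both scalings to cardiomyocyte genes.

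The comparison of HO parts with the matching chamber of E11.5H gave the size of the drop. Relative to all genes, 9 of the 10 fell in the atrium-like parts, against 8.81% of all 15418 genes tested, and Myom2 was the exception. The log2 fold change was -4.65 ± 0.46 for Nebl (25.1 times lower), -4.57 ± 0.59 for Mybpc3 (23.8 times), -4.52 ± 0.36 for Csrp3 (22.9 times), -4.17 ± 0.52 for Xirp1 (18.03 times) and -3.95 ± 0.61 for Actn2 (15.5 times). Smaller drops were seen for Tcap (-3.59 ± 0.25, 12.02 times), Myom1 (-3.20 ± 0.55, 9.18 times), Ttn (-2.77 ± 0.52, 6.83 times) and Ldb3 (-1.87 ± 0.25, 3.65 times). Their adjusted p in edgeR lay between 0.0013 (Tcap) and 0.012 (Ttn), and Myom2 had 1.01 ± 1.29 (adjusted p 0.58). The median over the 10 members was -3.77, beside 0.06 over all genes and -3.45 over the 16 reference cardiomyocyte genes. Without replicate 1 of the atria Ttn lost its call (-2.61, adjusted p 0.051 in edgeR). Of all genes, 514 were then called lower, against 1359 with no library left out. The value of Ttn was -3.44 without replicate 3 of the atrium-like parts. Without the atrium-like library with Myod1 9 of 10 were called, against 15.5% of all genes. The markers of gut epithelium were higher in the same HO libraries, as given above, and their part in the drop was not tested.

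**Figure D3:**
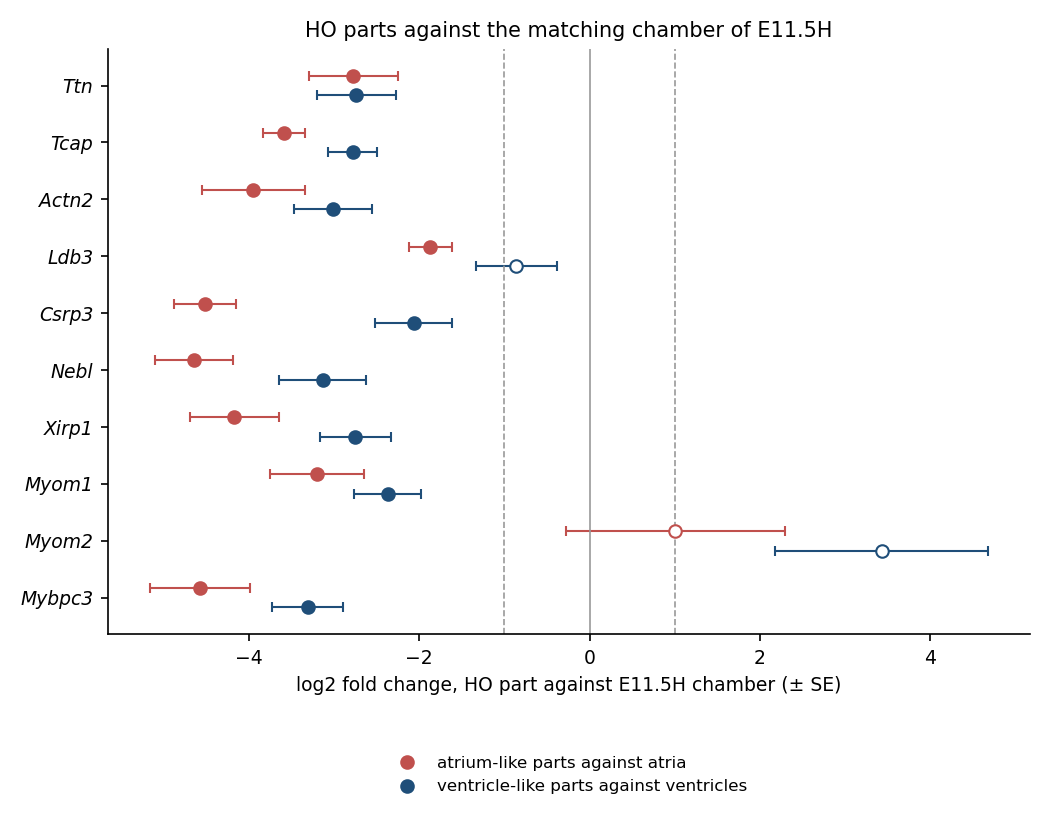
Log2 fold change (± SE, edgeR) of each HO part against the matching chamber of E11.5H. Filled points passed both thresholds (adjusted p under 0.05 and a log2 fold change over 1 in size), and dashed lines mark the fold limit. Of the 10 genes, 9 are filled for the atrium-like and 8 for the ventricle-like parts, all on the lower side, and Myom2 alone lies to the right of 0. Values are relative to all genes, and scaled to reference cardiomyocyte genes 4 of the atrial and 3 of the ventricular drops change sign.

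Relative to all genes, 8 of 10 were lower in the ventricle-like parts than in ventricles, against 7.35% of 15094 genes tested. The log2 fold change was -3.31 ± 0.42 for Mybpc3 (9.91 times lower), -3.13 ± 0.51 for Nebl (8.77 times), -3.01 ± 0.45 for Actn2 (8.07 times) and -2.78 ± 0.29 for Tcap (6.87 times). It was -2.75 ± 0.41 for Xirp1 (6.72 times), -2.74 ± 0.46 for Ttn (6.68 times), -2.37 ± 0.39 for Myom1 (5.17 times) and -2.07 ± 0.45 for Csrp3 (4.19 times). The adjusted p of these 8 in edgeR was 0.0026 (Tcap) to 0.020 (Csrp3), and the median over the 10 members was -2.74, beside 0.09 over all genes and -2.44 over the reference genes. Ldb3, with -0.86 ± 0.47, did not pass (adjusted p 0.22), but without replicate 3 of the ventricle-like parts it did (-1.55, adjusted p 0.013, with 9.42% of all genes lower). Leaving out the same library moved Nebl to -3.77, Actn2 to -3.71 and Ttn to -3.37. Csrp3 lost its call without replicate 1, 2 or 3 of the ventricles or replicate 1 of the ventricle-like parts (adjusted p 0.054 to 0.077, edgeR). Of all genes, 601, 557, 591 and 923 in turn were then called lower, against 1110 with no library left out. Without the library with Myod1 8 of 10 members were called, against 8.24% of all genes.

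Myom2 went the other way in ventricle-like parts, at 3.43 ± 1.25 with an adjusted p of 0.085 in edgeR, and it was higher in FPKM in all 3 libraries than in any ventricles library, as were 29.6% of all genes. DESeq2 called it (3.45, adjusted p 0.0100), as it did 16.1% of genes as higher, and edgeR did without replicate 2 of the ventricles, which held 0 fragments (2.83, adjusted p 0.048, 3.5% of genes). The counts behind it were 28, 0 and 19 in ventricles and 224, 203 and 146 in ventricle-like parts. In skeletal muscle Myom2 is a fast fibre gene. In the HO libraries with Myod1 it had 1.44 FPKM (atrium-like, Myod1 at 22.0 CPM) and 1.25 FPKM (ventricle-like, Myod1 at 41.9 CPM). In those with a Myod1 count of 0 it had 0.00705 and 0.735 FPKM in atrium-like and 1.38 and 0.909 FPKM in ventricle-like parts. Without the ventricle-like library that holds Myod1 the log2 fold change of Myom2 was 3.41 (adjusted p 0.11, edgeR). The cell type behind Myom2 in the HOs was not tested.

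Expressed as a share of the mean of the matching embryonic chamber, the level kept differed between HO libraries as well as between members. Leaving out Myom2, replicate 1 of the atrium-like parts kept between 1.05% (Mybpc3) and 16.7% (Ldb3) of the embryonic level, with a median of 2.002% over 9 genes. Replicates 2 and 3 of these parts had medians of 9.13% and 7.43%. The ventricle-like parts kept a median of 13.9%, 8.19% and 25.4% in replicates 1, 2 and 3, and replicate 3 reached 102% for Ldb3. In each of the 6 HO libraries Ldb3 kept the largest share of these 9 genes, while the smallest was that of Mybpc3, Nebl, Xirp1 or Actn2. Replicate 1 of the atrium-like parts was the lowest HO library for 10 of 10 genes and replicate 3 of the ventricle-like parts the highest for 9. The mean log2 CPM of the 16 reference cardiomyocyte genes was also lowest (4.90) and highest (8.37) among HO libraries in these 2. The share of all genes with this order was not counted.

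**Figure D4:**
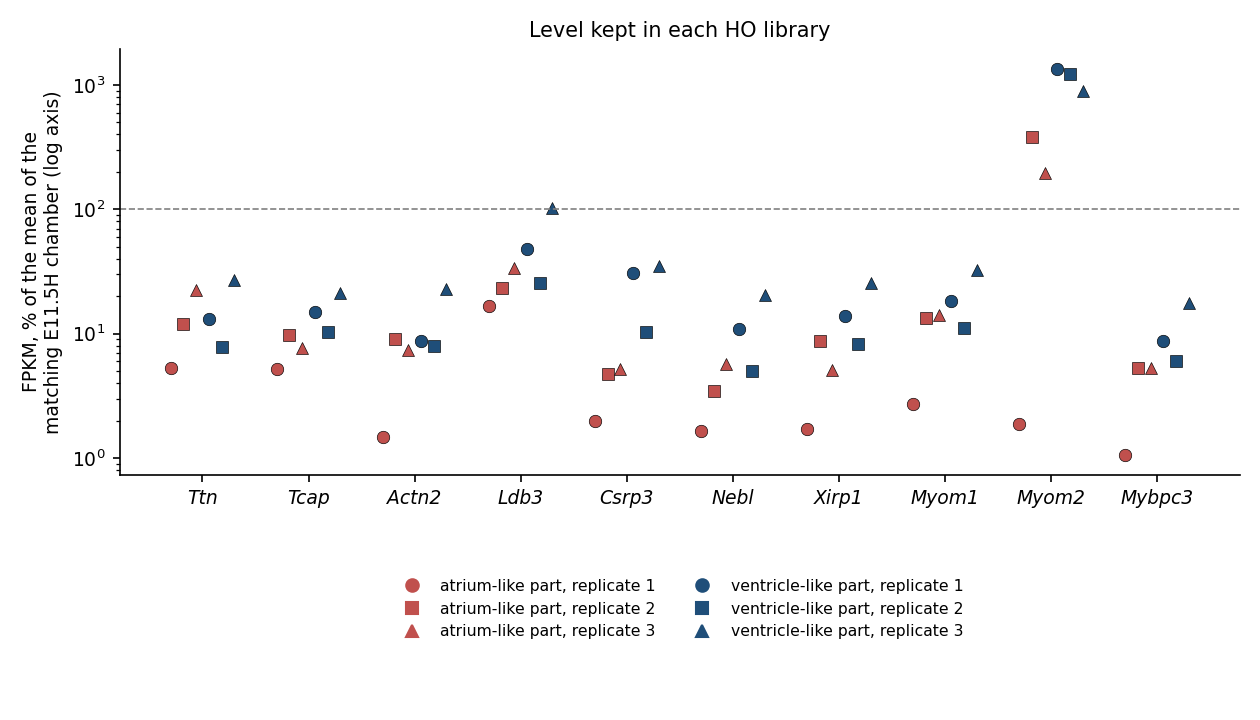
Level of each gene in each HO library as a percentage of the mean FPKM of the matching E11.5H chamber (log axis, dashed line at 100%). Colours give the part and symbols the replicate. Replicate 1 of the atrium-like parts is the lowest point of all 10 genes, Ldb3 lies highest among the genes other than Myom2, and Myom2 lies above 100% in 5 libraries. The 16 reference cardiomyocyte genes also had their lowest mean log2 CPM among HO libraries in replicate 1 of the atrium-like parts.

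The spread within a group was larger in the HOs. Over the 9 genes other than Myom2 the highest library of a group was 1.08 (Myom1) to 1.64 (Ttn) times the lowest in atria and 1.05 (Csrp3) to 1.204 (Myom1) times in ventricles. The same ratio was 1.87 (Tcap) to 6.17 (Actn2) in atrium-like and 2.04 (Tcap) to 4.14 (Nebl) in ventricle-like parts. Tcap varied least in both HO parts.

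Since 15 of the 16 reference cardiomyocyte genes passed as lower on the atrial and 13 on the ventricular side, each member was also set against their mean log2 FPKM in the same library. On this scale Mybpc3 went from -0.06 to 0.21 in atria and 0.30 to 0.41 in ventricles down to between -1.49 and -0.92 in the atrium-like and between -0.65 and -0.47 in the ventricle-like parts. Nebl likewise went from -3.94 to -3.58 over E11.5H to -5.20 to -4.48 over HOs. Actn2 was at 0.46 or above in E11.5H and at 0.34 or below in HOs, and Xirp1 at -3.47 or above and at -3.51 or below. Against the 16 reference genes these 4 were thus lower in every HO library than in any E11.5H library, by a small margin for Actn2 and Xirp1. The share of all genes without overlap on this scale was not counted. Against the 6 cardiac-restricted genes Mybpc3, Nebl and Actn2 stayed separate. Xirp1 then overlapped, at -2.49 in replicate 3 of the ventricle-like parts and -2.54 in replicate 3 of the atria. Ttn went opposite ways on the 2 sides, from between -3.72 and -3.18 in atria up to between -3.11 and -2.34 in atrium-like parts, but from between -3.44 and -3.29 in ventricles down to between -3.97 and -3.55 in ventricle-like parts. Csrp3 went from between 1.83 and 1.92 in atria down to between 0.75 and 1.26 in atrium-like parts and overlapped on the ventricular side. Tcap overlapped on both sides, but against the 6 cardiac-restricted genes it was lower without overlap in ventricle-like parts. Ldb3 moved up, from a range of -2.92 to -2.32 over E11.5H to between -1.19 and 0.07 in the atrium-like and between -1.78 and -1.14 in the ventricle-like parts. Myom1 stayed in one range, with values between -2.82 and -2.45 in E11.5H and between -2.88 and -2.11 in HOs, but against the 6 cardiac-restricted genes its ventricle-like values (-1.82 to -1.64) lay below those of ventricles (-1.05 to -0.92). The ratio of Ldb3 to Actn2 in FPKM shows the same in 2 Z-disc partners, at 0.134 to 0.137 in atria, 0.0813 to 0.0862 in ventricles, between 0.347 and 1.53 in atrium-like parts and between 0.269 and 0.460 in ventricle-like parts, with no overlap between HOs and E11.5H.

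**Figure D5:**
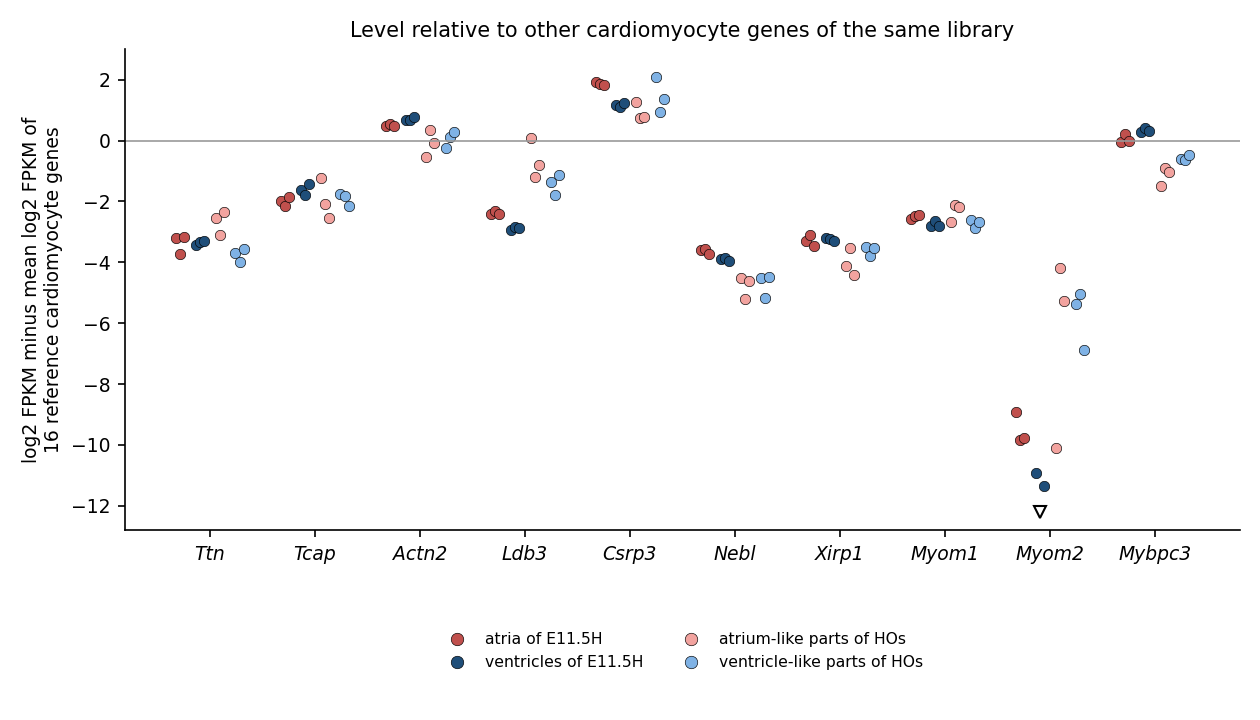
Log2 FPKM of each gene minus the mean log2 FPKM of 16 reference cardiomyocyte genes of the same library, 1 point per library. The open triangle is the ventricles library listed at 0 for Myom2. Ldb3 lies higher in all 6 HO libraries than in all 6 E11.5H libraries, and Mybpc3, Nebl, Actn2 and Xirp1 lie lower. Ttn lies higher on the atrial and lower on the ventricular side. Csrp3 lies lower on the atrial side and overlaps on the ventricular one, and Myom2 overlaps on the atrial side and lies higher on the ventricular one. Myom1 and Tcap overlap on both sides. In the fit scaled to these genes 91.2% of all genes were called higher on the atrial and 88.5% on the ventricular side.

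When the fit itself was scaled to the 16 reference genes, the median of all genes shifted by 3.81 in atrium-like parts against atria and by 2.65 in ventricle-like parts against ventricles, and the lower values of Ttn, Myom1, Tcap and Ldb3 on the atrial side and of Myom1, Csrp3 and Ldb3 on the ventricular side changed sign. On the atrial and the ventricular side in turn, only Ldb3 (1.84, adjusted p 0.012, and 1.48, adjusted p 0.0030) and Myom2 (4.25, adjusted p 0.0036, and 6.10, adjusted p 0.0035) then passed edgeR's test with the fold limit, both as higher. On that scale 91.2% of all genes were called higher on the atrial and 88.5% on the ventricular side, and 0.649% and 0.563% lower, so a call of higher is near the background. Mybpc3 (-0.91, adjusted p 0.021) and Nebl (-0.79, adjusted p 0.0496) were lower in ventricle-like parts without reaching the fold limit. Scaled instead to 6 cardiac-restricted genes such as Myh6 and Ryr2 (shifts of 3.84 and 1.91), the ventricle-like parts had 6 members lower (Mybpc3, Nebl, Actn2, Ttn, Xirp1 and Tcap, from -1.65 to -1.04) and Myom2 higher, whereas the atrium-like parts again had Ldb3 and Myom2 higher. Of all genes, 0.954% were then lower and 77.1% higher on the ventricular side, and 0.642% lower and 90.9% higher on the atrial side. In E11.5H the shift was 0.52 with 16 genes and -0.29 with 6, and Tcap, Mybpc3 and Actn2 stayed lower in atria at the adjusted p under both, whereas Xirp1 had -0.04 (adjusted p 0.78, edgeR) under the first. Ttn, Myom1, Nebl and Ldb3 changed sign under the first and Csrp3 under the second.

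Other genes of the same structures were taken from 2 lists. Of 35 other Z-disc and thin filament end genes, 17 of 32 tested were lower and 1 higher in atrium-like parts (all genes: 8.81% lower, 16% higher), and 18 of 33 were lower and 0 higher in ventricle-like parts (all genes: 7.35% lower, 11.6% higher). Of 16 other M-band and A-band genes, 11 of 14 tested were lower on the atrial and 6 of 15 on the ventricular side, with 0 higher. Their median log2 fold change was -1.82 and -2.49 on the atrial side for the 2 lists, and -1.04 and -1.43 on the ventricular side. Beside these stood -3.77 and -2.74 for the members and -3.45 and -2.44 for the 16 reference cardiomyocyte genes. The lists were not matched to the members. The Z-disc list also holds genes with little change, such as Capza2 (mean 128 FPKM in atria, 105 in atrium-like parts), and genes of low level, such as Xirp2 (at most 0.160 FPKM in atria).

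The steepest drops in these lists were those of Myoz1, a calcineurin-binding Z-disc protein, with a log2 fold change of -7.18 ± 0.68, Smpx, a small protein of striated muscle, with -6.04 ± 0.48 and Unc45b, a chaperone of muscle myosin, with -4.92 ± 0.65 in atrium-like parts. Smpx was at 167 to 216 FPKM in atria and 1.497 to 4.89 FPKM in atrium-like parts. In ventricle-like parts the value was -5.46 ± 0.36 for Smpx, -5.003 ± 0.94 for Lmod3, a leiomodin of the thin filament, and -4.13 ± 0.48 for Nrap, a nebulin-related anchor protein. Actn4, the non-muscle relative of Actn2, was the gene that rose, from 54.5 to 65.6 FPKM in atria to 101 to 174 FPKM in atrium-like parts (1.28 ± 0.31, adjusted p 0.025, edgeR). The other adjusted p-values of these genes in edgeR were 0.013 or lower.

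Between the chambers of E11.5H, 4 of 32 tested genes of the Z-disc list were lower and 1 higher in atria, and 2 of 15 tested genes of the M-band and A-band list were lower and 3 higher (all genes: 1.97% lower, 2.92% higher). Nrap (-1.63 ± 0.15) and Pdlim3, an actinin-binding PDZ and LIM protein (-1.501 ± 0.11), were lower in atria. Mybpc1, the slow skeletal form of myosin-binding protein C, had 0 fragments in all 3 atria libraries and 502, 574 and 127 in ventricles, which makes it at least 418-fold lower against a floor of 3 counts over the group. Mybphl, an atrial relative of myosin-binding protein C, was higher in atria by 1.90 ± 0.11, Cmya5 (myospryn) by 1.64 ± 0.20 and Trim54, a muscle RING finger protein, by 1.42 ± 0.20. Adjusted p-values of these 6 in edgeR were 0.0012 or lower. No gene of either list passed between the HO parts or in the difference of differences.

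The genes whose pattern over the 12 libraries came closest to that of each member were named by the root mean square difference of centred log2 CPM, among 12080 genes with a mean of at least 5 CPM. Xirp1 was nearest to Smyd1 (0.20), Csrp3 to Asb2 (0.21), Mybpc3 to Mov10l1 (0.22), Ldb3 to Grb14 (0.22) and Nebl to Sh3bgr (0.23). Myom1 was nearest to Myo18b (0.24), Actn2 to Xirp1 (0.25), Tcap to C130080G10Rik (0.31) and Ttn to Camk2a (0.32). Myom2 had no close match, with 1.35 to Notum as the nearest. Among the 3 nearest genes another member appeared for Ttn (Myom1), Mybpc3 (Actn2), Actn2 (Xirp1 and Mybpc3) and Xirp1 (Actn2), and Ldb3 had Grb14, Cryab and Cited4. These values are a description over 12 libraries that share the drop from E11.5H to HOs.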

How the data were processed

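RNA was sequenced from dissected atria and ventricles of E11.5 hearts and from atrium-like and ventricle-like parts of 13-day HOs, 3 libraries each. Reads were mapped to GRCm38/mm10 with STAR by the authors, per the labels and the study's methods (version, counter and use of strand not given in the sources used here). The deposited table holds expected counts of fragments per gene, with 23.8% of values not whole, and the FPKM that the authors derived from them per transcript length and library. Libraries held 23971258 to 30540993 fragments.

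The counts were rounded and tested with edgeR 4.0.16 (R 4.3.3; TMM scaling, filterByExpr with a minimum count of 10, quasi-likelihood F test, Benjamini-Hochberg adjustment over all genes tested). A call needed an adjusted p under 0.05 and a log2 fold change over 1 in size. Each pair of groups was fitted on its own 6 libraries, and the difference of chamber differences on all 12. SE is the log2 fold change divided by the square root of F. Fold changes of FPKM were not tested. With 3 libraries a group, an exact permutation test cannot go below p = 0.1, so no test of single values was run. The floor of 3 counts covers counting error only.

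Alternatives were DESeq2 1.42.0, RLE scaling, other filters, no fold limit, 1 fit of all libraries, replicate number as a block, scaling to 16 reference cardiomyocyte or 6 cardiac-restricted genes (no member among them), leaving out each library and, chosen after seeing the data, leaving out HO libraries with at least 1 CPM of Myod1. The scripts were tested on simulated counts. The members, the lists and the scalings were chosen with earlier results of these data known. Of the other sarcomere genes, up to 3 with the largest rise and 3 with the largest fall past the threshold were named per comparison, and the 3 genes most like each member over 12 libraries. Replicates of a group differed by more than counting noise in every pair.

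Marker lists for smooth muscle, endothelium, fibroblasts, liver and visceral endoderm and macrophages (10, 10, 10, 12 and 10 genes) had a mean log2 CPM in HOs of 4.11 to 5.90, 0.68 to 4.55, 6.19 to 8.72, -0.06 to 9.13 and 1.41 to 5.43, and in E11.5H of 5.76 to 6.98, 5.66 to 5.86, 6.35 to 6.72, -2.30 to -0.99 and 0.58 to 2.46.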

Additional observations from a re-analysis of the deposited data

How the results depend on the processing

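With RLE scaling, both other filters, no fold limit and all libraries in 1 fit, 9 members passed in atrium-like against atria and 8 in ventricle-like parts against ventricles. Of all genes, 1323 to 1934 were lower on the atrial and 1044 to 2090 on the ventricular side under these settings. With DESeq2 9 and 9 members passed, with Myom2 added on the ventricular side. It called 1796 of 15418 genes lower and 2998 higher on the atrial side. On the ventricular side it called 1316 of 15094 lower and 2426 higher. Of 840 alternative values of single members, 748 kept direction and side of the threshold, 23 no longer passed, 19 passed newly and 50 changed sign, 40 of them under the scalings. Between E11.5H chambers 4 members passed with no fold limit (all genes: 1041 lower and 941 higher of 14536). Scaled to the cardiac-restricted genes 3 passed (Tcap, Mybpc3 and Actn2), with 638 of all genes lower and 347 higher. Between HO parts DESeq2 called 2, and in the difference of differences 1, as did edgeR without the libraries holding Myod1. Scaled to the 16 reference genes, 2 members passed on the atrial and 2 on the ventricular side, all higher, and scaled to the 6 genes 2 on the atrial side. Leaving out 1 library gave 0 members between E11.5H chambers and HO parts, 8 to 9 on the atrial side, 7 to 9 on the ventricular side and 0 to 1 in the difference of differences. Of all genes, 514 to 2454 were then lower on the atrial and 557 to 1470 on the ventricular side. Log2 values that changed sign with 1 library left out ranged from -0.081 to 0.031 for Ldb3 between E11.5H chambers, from -1.196 to 0.049 for Ttn between HO parts and from -0.68 to 0.57 for Ttn in the difference of differences. Scaled to the 16 genes, E11.5H chambers gave Ttn 0.0095, Myom1 0.25, Ldb3 0.50 and Nebl 0.27, and scaled to the 6 genes Csrp3 -0.12. HO parts gave Ttn 1.11, Myom1 0.41, Myom2 0.39, Ldb3 0.86 and Tcap 0.056 with 16 genes and 1.02, 0.32, 0.29, 0.81 and 0.017 with 6. Atrium-like parts against atria gave Ttn 0.72, Myom1 0.20, Ldb3 1.84 and Tcap 0.14 with 16 and 0.69, 0.17, 1.85 and 0.16 with 6. Ventricle-like parts against ventricles gave Myom1 0.038, Ldb3 1.48 and Csrp3 0.36 with 16 and Ldb3 0.74 with 6. The difference of differences gave Ttn 1.096, Actn2 0.080, Myom1 0.16, Ldb3 0.36 and Tcap 0.44 with 16, and Ttn 1.81, Mybpc3 0.45, Actn2 0.79, Myom1 0.88, Ldb3 1.11, Tcap 1.201, Nebl 0.41 and Xirp1 0.41 with 6. These scalings divide out the level of cardiomyocyte genes, some of which differed between the chambers of E11.5H. Of the 16 genes 2 passed as lower and 1 as higher in atria, and of the 6 genes 0 and 1 (all genes: 1.97% lower, 2.92% higher). Mean FPKM in atria and ventricles was 33.1 and 1306 for Myh7 and 16.2 and 220 for Pln, both among the 16 only. For Myh6, in both lists, it was 1467 and 470. The cause of the changes was not tested further.

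The sources say that both parts were cut from HOs but not that a number marks the same HOs, so the libraries were not taken as paired. Deviations of same-numbered libraries correlated at 0.030, 0.57 and 0.35 between HO parts and at 0.0078 to 0.037 between E11.5H chambers. With the replicate number as a block 0 members passed between E11.5H chambers, 0 between HO parts, 9 on the atrial side, 8 on the ventricular side and 0 in the difference of differences. Not every library correlated best with its own number, although Myod1 was found in replicate 2 of both HO parts. Taken by number, Nebl and Ldb3, whose HO parts overlapped, were lower in the atrium-like part in 3 of 3 pairs. Ttn, Myom1 and Myom2, which also overlapped, were higher in the atrium-like part in replicate 2. The mean log2 CPM of the 16 reference cardiomyocyte genes was lower in the atrium-like library of each number as well. It stood at 4.90, 6.30 and 6.60 in the atrium-like and 7.48, 6.91 and 8.37 in the ventricle-like parts. The share of all genes with 3 of 3 pairs in 1 direction was not counted. All-gene calls between ventricle-like parts and ventricles were 1749 higher and 1110 lower without the block and 1101 and 902 with it. Between atrium-like parts and atria they were 2462 higher and 1359 lower without the block and 1777 and 1029 with it. Counts limit Myom2 most, with 0 to 241 fragments a library, and the common biological coefficient of variation was 0.21 between E11.5H chambers and 0.68 between HO parts.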
